A study of Oryza sativa with 12 samples.

Results

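The transcripts described here come from 8 rice genes of the heat shock response, 4 encoding heat shock transcription factors (HsfA2a, HsfA2c, HsfA2d and HsfB2c) and 4 encoding large molecular chaperones (HSP101, HSP90 from 2 loci, and HSP70). The genes were listed by locus ID, and all 8 were found among the 36844 features of the count table. Their IDs are Os03g0745000 (HsfA2a), Os10g0419300 (HsfA2c), Os03g0161900 (HsfA2d), Os09g0526600 (HsfB2c), Os05g0519700 (HSP101), Os04g0107900 and Os08g0500700 (HSP90), and Os03g0821100 (HSP70).

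Leaf RNA was sequenced from IL22, a single introgression line, homozygous at the markers used for selection, in which segments of FL478, a tolerant *indica* line, including the *Saltol* region of Chromosome 1, were bred into the salt-sensitive *japonica* cultivar OLESA. The paper also maps a large *indica* segment on Chromosome 3 of IL22. HsfA2a, HsfA2d and HSP70 have locus IDs of Chromosome 3, and whether any of them lies in that segment was not tested. OLESA was sequenced alongside as the recurrent parent, and its libraries, coded PL12 in the labels, were taken as OLESA because it is the only parent in the RNA-Seq design. Seedlings of both lines spent 7 days in water and 7 days in hydroponic culture (28 °C by day, 26 °C by night, 14 h of light), after which the salt groups received 80 mM NaCl for 24 h and the control groups received none. Each of the 4 groups has 3 libraries, each from the pooled leaves of a separate set of 4 plants, so p-values measure the spread between these sets. Salt was given in the tank solution, and the paper does not say which tanks the sets came from. Whether this spread includes variation between tanks is therefore not known.

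Heat shock factors are transcription factors that bind heat shock elements in promoters, and they drive the transcription of chaperone genes when proteins unfold. Class A factors activate transcription, and HsfA2 of Arabidopsis prolongs and amplifies the response after the first factors have started it. Class B factors lack the activation domain of class A, and several of them act as repressors in Arabidopsis. HSP101 is a disaggregase of the ClpB type that pulls proteins out of aggregates, HSP70 holds unfolded stretches of proteins, and HSP90 assists the late folding of client proteins, heat shock factors among them in several eukaryotes. In plants, salt and drought can raise transcripts of this response without any heat.

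Library totals ran from 11505396 to 23578477 counts, and levels are given in CPM, the count divided by the library size after scaling by the trimmed mean of M-values (TMM). Across genes, log2 CPM of IL22 control replicate 1 correlated at r = 0.942 and 0.937 with replicates 2 and 3 of its group, below the 0.950 to 0.981 of all other pairs within groups, so results that use IL22 control were also computed without it. The test was edgeR's quasi-likelihood test on all 12 libraries with Benjamini-Hochberg adjustment over 20760 features. A gene was called when its adjusted p did not exceed 0.05 and its log2 fold change was beyond 0.5 in size, except for the interaction, where the adjusted p alone decided. In leaf extracts, fewer cells of a type and less RNA per cell cannot be told apart.

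After 24 h of salt, all 4 heat shock factor transcripts of OLESA passed the test, of which HsfA2a, HsfA2c and HsfB2c were higher and HsfA2d was lower in salt. Among the chaperones, HSP101 and HSP90 Os04g0107900 were higher, whereas HSP90 Os08g0500700 and HSP70 were not called. The 6 of 8 genes called stand beside 21.6% of all features called in OLESA, the 5 called higher beside 11.7%, and the 1 called lower beside 9.89%. The salt libraries lay entirely above the controls for 5 of 8 genes, beside 20.0% of all features, and entirely below for 1, beside 19.7%. The genes were chosen with earlier results of these data known. An excess over these shares is therefore no independent support for a response of the list. With 1 library left out, the share of all features called ranged from 9.05% (without OLESA control replicate 2, where 4 of the 8 genes were called) to 27.5% (without IL22 control replicate 1, with 6). The median log2 fold change was 1.43 over the 8 genes and 0.01 over all features. In IL22, 2 of 8 genes were called, HsfA2a and HsfA2c, both higher in salt, beside 5.17% of all features in either direction and 2.92% higher, and the median log2 fold change was 0.51 against −0.03 over all features. The number called in IL22 was 1 without IL22 control replicate 2 or 3 and without IL22 salt replicate 1, 2 or 3, and it was 3 without OLESA control replicate 2. Without IL22 control replicate 1 it stayed at 2, while the share of all features rose to 14.7%, and the lowest share was 1.64% without IL22 salt replicate 1.

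These counts have a limit in the filter on low counts, since a gene admitted only through the libraries where it is high had to differ. HSP90 Os04g0107900 passed only through the 3 OLESA salt libraries, and HsfA2a only through 5 salt libraries of both lines. HSP101 reached the level of the filter in 7 libraries, 5 of them salt libraries. Its control libraries at that level, 1 in each line, were fewer than the 3 needed, so it too passed because of salt libraries. The other genes, HsfA2c, HsfA2d, HsfB2c, HSP90 Os08g0500700 and HSP70, reached it in all 12 libraries. Of these 5 genes, 3 were called in OLESA and 1 in IL22. No share of all features that reached the level in all 12 libraries is given, so these counts have no background of their own. The medians over all 8 genes carry the same limit. Over these 5 genes alone, the middle log2 fold change was 0.38 in OLESA (HSP90 Os08g0500700) and 0.29 in IL22 (HsfA2d).

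**Figure D1:**
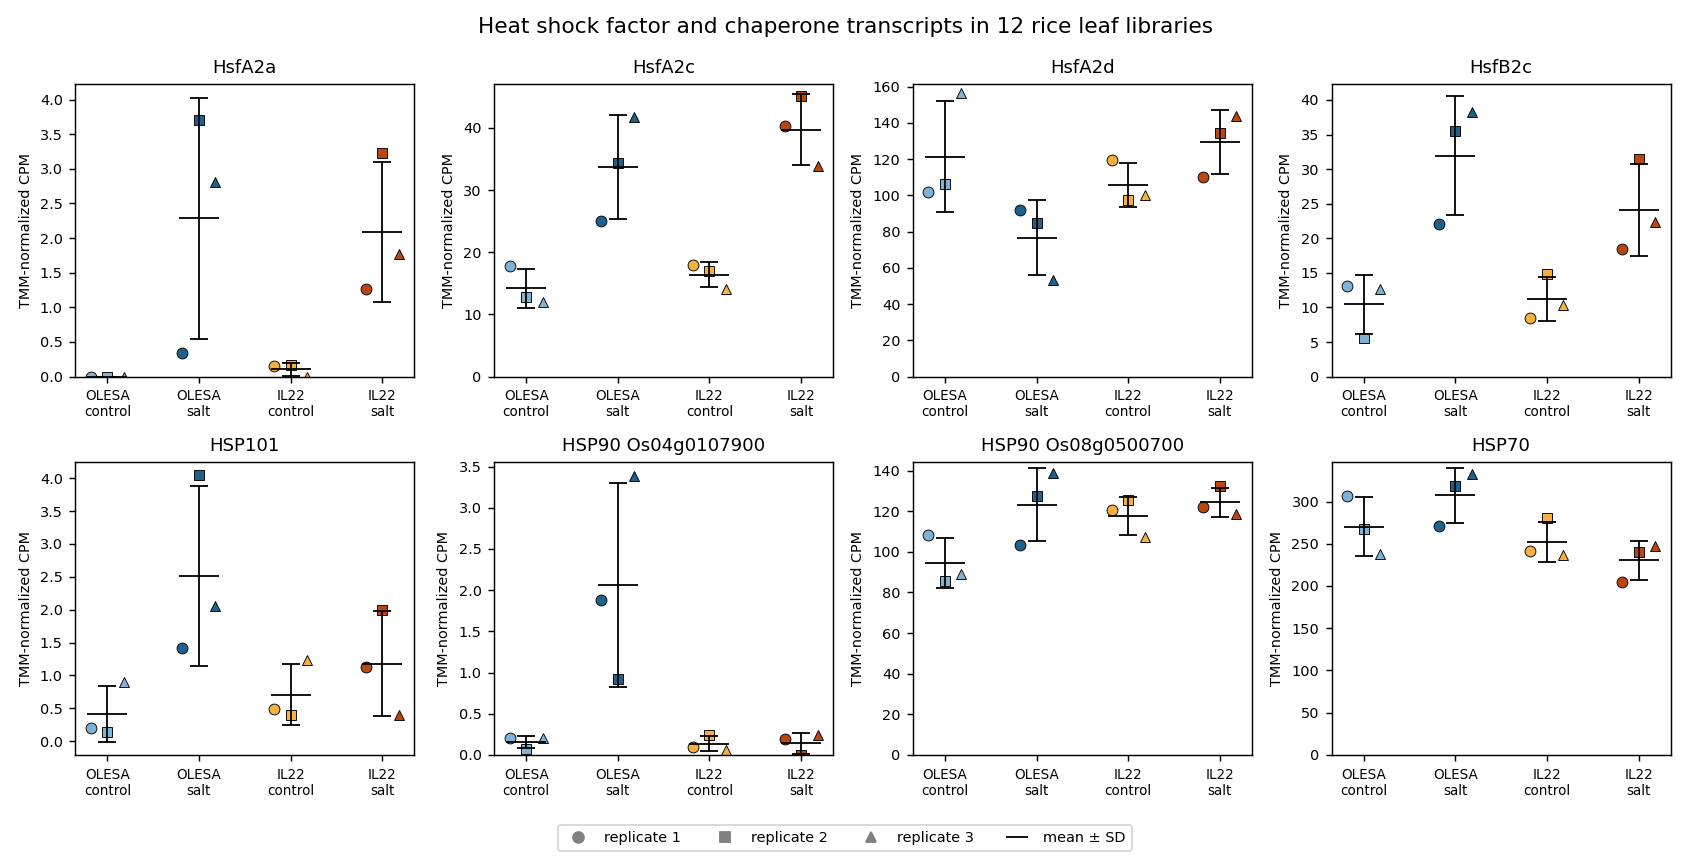
TMM-normalized CPM (vertical axis, linear) of each gene in the 4 groups, with 1 symbol per library and the mean ± SD of 3 libraries in black. HsfA2a, HsfA2c and HsfB2c sit higher in the salt groups of both lines, HSP90 Os04g0107900 lies between 0.927 and 3.39 CPM in OLESA salt and at or below 0.241 CPM in the other groups, and HSP70 spans 204 to 333 CPM over all libraries.

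HsfA2a, a class A2 activator, had 0 counts in each of the 3 OLESA control libraries. After salt, the OLESA libraries held 6, 44 and 63 counts, or 0.342, 3.71 and 2.81 CPM. All 3 salt libraries thus exceeded the control libraries, although replicate 1 lay far below the other two. The group mean of 2.29 ± 1.74 CPM (SD, n = 3) was at least 37.0-fold higher than in control, with 3 counts over the control group as the floor (adjusted p = 0.00507, edgeR quasi-likelihood test). Since HsfA2a entered the test only through salt libraries, its p is no independent support for the rise. A count of 0 in the OLESA control group allows up to 0.0617 CPM, counting error only.

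In IL22 control, HsfA2a had 3, 2 and 0 counts, or 0.146, 0.160 and 0 CPM, and in IL22 salt it had 27, 50 and 22 counts, or 1.27, 3.22 and 1.77 CPM. Every salt library was above every control library. Salt raised HsfA2a in IL22 by a log2 fold change of 4.24 ± 1.00 (SE), with a 95% interval from 2.04 to 6.44 (adjusted p = 0.0344, edgeR). This call rests on few reads, and the gene entered the test only through salt libraries. It was lost without IL22 control replicate 2 (adjusted p = 0.105) or 3 (0.110), and without IL22 salt replicate 1 (0.0738), 2 (0.122) or 3 (0.0696), whereas it held without IL22 control replicate 1 (0.0363).

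HsfA2c, another class A2 activator, was higher in salt in both lines and was called in both under all 21 alternatives tried. In OLESA it measured 17.8, 12.8 and 11.95 CPM in control and 25.01, 34.3 and 41.8 CPM in salt. In IL22 it measured 17.9, 17.0 and 14.1 CPM in control and 40.2, 45.1 and 33.8 CPM in salt. In neither line did the salt libraries overlap the control libraries, and the lowest salt value of all was again OLESA replicate 1. The log2 fold change was 1.25 ± 0.22 (SE) in OLESA, a 2.38-fold rise (adjusted p = 0.0034, edgeR). In IL22 it was 1.28 ± 0.22 (SE), a 2.43-fold rise (adjusted p = 0.00612, edgeR, and 0.00558 without IL22 control replicate 1).

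HsfA2d, also of class A2, was the factor with lower values in salt-treated OLESA. Its control libraries measured 102, 106 and 157 CPM, and its salt libraries 92.0, 84.9 and 53.2 CPM. The groups did not overlap, but the lowest control and the highest salt library lay close together, and replicate 3 was both the highest control and the lowest salt library. Salt changed HsfA2d in OLESA by −0.66 ± 0.22 (SE) on the log2 scale, a 1.58-fold decrease (adjusted p = 0.0489, edgeR). The call was lost in 11 of 21 alternatives, among them the fit to the OLESA libraries alone (adjusted p = 0.0794). It was lost without OLESA control replicate 2 (0.0753) or 3 (0.193), where the log2 fold change was −0.45 in the latter case, and without OLESA salt replicate 2 (0.0738) or 3 (0.128). It was also lost, with adjusted p between 0.0559 and 0.0619, without IL22 control replicate 2 or 3 and without IL22 salt replicate 1, 2 or 3.

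In IL22, HsfA2d measured 120, 97.6 and 100.2 CPM in control and 110, 135 and 144 CPM in salt. Here salt replicate 1 lay inside the range of the controls, so the groups overlapped. The estimated log2 change was 0.29 ± 0.22 (SE), with a 95% interval from −0.19 to 0.77 (adjusted p = 0.489, edgeR). Hence, no salt response of HsfA2d was detectable in IL22.

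HsfB2c belongs to the class B factors. In OLESA, it measured 13.1, 5.56 and 12.7 CPM in control and 22.1, 35.5 and 38.3 CPM in salt. All salt libraries lay above all control libraries. A log2 fold change of 1.61 ± 0.34 (SE) corresponds to a 3.05-fold rise (adjusted p = 0.00726, edgeR), which was called under all 21 alternatives.

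HsfB2c in IL22 measured 8.54, 14.8 and 10.4 CPM in control and 18.5, 31.5 and 22.3 CPM in salt. These groups did not overlap either. Its log2 fold change of 1.106 ± 0.336 (SE), with a 95% interval from 0.38 to 1.83, did not pass after adjustment (adjusted p = 0.0768, edgeR). DESeq2 called it (adjusted p = 0.0233), as did edgeR's likelihood ratio test (0.0248), the fit with no filter (0.041) and the fit without OLESA control replicate 2 (0.0463). These fits called 9.73%, 9.32%, 4.44% and 3.93% of all features, beside 5.17% in the full fit. HsfB2c was not called in 16 of 21 alternatives, with adjusted p up to 0.272. Without IL22 control replicate 1, its log2 fold change was 0.94 (adjusted p = 0.101, edgeR). In IL22, 3 of 8 genes, all of them factors, had salt libraries entirely above the controls, beside 14.2% of all features.

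**Figure D2:**
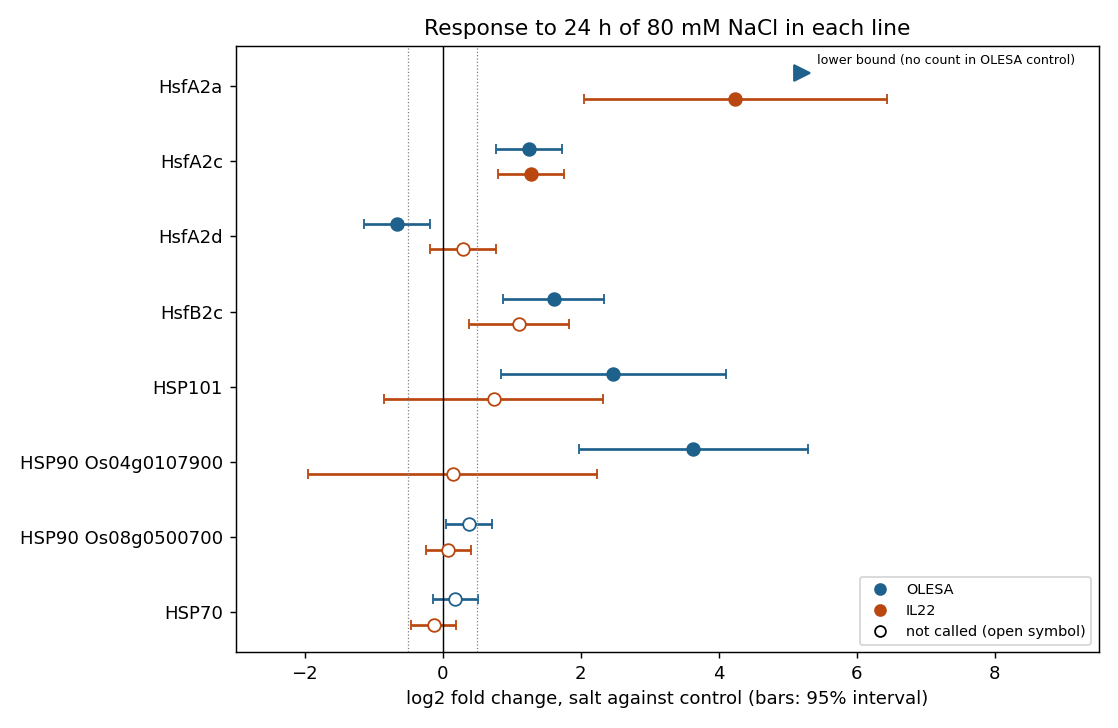
Log2 fold change of salt against control (horizontal axis) with its 95% interval for each gene in OLESA (blue) and IL22 (orange), with filled symbols for calls and dotted lines at −0.5 and 0.5. The triangle for HsfA2a in OLESA, marked as a lower bound, is its salt mean over the control floor (log2 ratio 5.21). It leaves out the spread among the salt libraries. The HsfA2c estimates of 1.25 and 1.28 nearly coincide.

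HSP101, the ClpB-type disaggregase, had at most 48 counts in a library. OLESA control libraries held 3, 2 and 18 counts (0.204, 0.143 and 0.904 CPM), and OLESA salt libraries held 25, 48 and 46 counts (1.42, 4.04 and 2.05 CPM). All salt values exceeded all control values, and control replicate 3 was far above the other controls. HSP101 thus had a log2 fold change of 2.47 ± 0.75 (SE), a 5.55-fold rise with a 95% interval from 0.85 to 4.10 on the log2 scale (adjusted p = 0.0336, edgeR). Since HSP101 would not have entered the test without salt libraries, its p is no independent support for the rise. The call was lost without OLESA control replicate 1 (0.0904) or 2 (0.119), and without OLESA salt replicate 2 (0.116) or 3 (0.0504). Without OLESA control replicate 3 the log2 fold change was 3.76 in place of 2.47 (0.026).

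In IL22, HSP101 had 10, 5 and 19 counts in control (0.488, 0.401 and 1.24 CPM) and 24, 31 and 5 counts in salt (1.13, 2.00 and 0.402 CPM). The groups overlapped, with salt replicate 3 at the level of the lowest control. Its log2 fold change of 0.74 ± 0.73 (SE) was not called (adjusted p = 0.61, edgeR), and its 95% interval from −0.84 to 2.32 spans both a fall and a several-fold rise.

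HSP90 Os04g0107900 was barely counted in OLESA control, with 3, 1 and 4 counts (0.204, 0.0713 and 0.201 CPM). After salt, OLESA held 33, 11 and 76 counts (1.88, 0.927 and 3.39 CPM). Every salt library lay above every control library, with replicate 2 the lowest and replicate 3 the highest. Its log2 fold change was 3.63 ± 0.77 (SE), a 12.4-fold rise (adjusted p = 0.00745, edgeR). Since the gene entered the test only through these salt libraries, its p is no independent support for the rise, and a filter of 1 CPM in 3 libraries left it out.

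In IL22, HSP90 Os04g0107900 had 2, 3 and 1 counts in control (0.0976, 0.241 and 0.0652 CPM) and 4, 0 and 3 counts in salt (0.188, 0 and 0.241 CPM). No library of this line reached the level of the OLESA salt libraries. A log2 fold change of 0.15 ± 0.97 (SE) was not called (adjusted p = 0.952, edgeR), and its 95% interval ran from −1.95 to 2.24, so a change of several fold was not detectable at this depth.

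The other HSP90, Os08g0500700, had 1200 to 3112 counts in each of the 12 libraries. It measured 108, 85.6 and 89.3 CPM in OLESA control and 103, 127 and 139 CPM in OLESA salt. One salt library fell below the highest control, so the groups overlapped, and the log2 fold change of 0.38 ± 0.15 (SE) did not pass (adjusted p = 0.0847, edgeR). In IL22 it measured 121, 125 and 107 CPM in control and 122, 132 and 119 CPM in salt, with overlapping groups and a log2 fold change of 0.08 ± 0.15 (SE; adjusted p = 0.805, edgeR). The 95% interval in IL22, from −0.25 to 0.41, leaves out any change beyond the size used for calls.

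HSP70, which holds unfolded proteins, measured 307, 267 and 237 CPM in OLESA control and 271, 319 and 333 CPM in OLESA salt. It measured 241, 280 and 236 CPM in IL22 control and 204, 240 and 247 CPM in IL22 salt. Control and salt overlapped in both lines. The log2 fold change was 0.19 ± 0.15 (SE) in OLESA (adjusted p = 0.399, edgeR) and −0.13 ± 0.15 (SE) in IL22 (adjusted p = 0.667, edgeR). The 95% intervals of HSP70 reached from −0.14 to 0.51 in OLESA and from −0.46 to 0.20 in IL22.

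Next, IL22 was compared with OLESA without salt, to see whether the lines differed in these genes before the treatment. None of the 8 genes was called by edgeR's quasi-likelihood test, none had an unadjusted p under 0.05 with the same fold change, and DESeq2 and edgeR's likelihood ratio test also called 0. The background is 1.38% of all features called, 15.6% at an unadjusted p, 5.48% with DESeq2 and 4.78% with the likelihood ratio test. Without IL22 control replicate 1 the background rose to 18.9% of features, and without replicate 2 of that group it fell to 0.741%, and in both cases the number of these 8 genes called was 0. No gene of the list had IL22 control libraries entirely on one side of the OLESA control libraries, which 15.9% of all features had. The closest to a difference was HSP90 Os08g0500700, with 118 ± 9.43 CPM in IL22 and 94.4 ± 12.3 CPM in OLESA (SD, n = 3) and a log2 fold change of 0.32 ± 0.15 (SE; adjusted p = 0.283, edgeR). HSP101 and HSP90 Os04g0107900 had intervals of more than 3 log2 units in this comparison, so differences of several fold were not detectable for them. HsfA2a had 5 counts over the IL22 control libraries and 0 over those of OLESA, and was not called (adjusted p = 0.342, edgeR).

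Under salt, 1 of 8 genes differed between the lines, beside 2.85% of all features called and 1.65% called lower in IL22. This was HSP90 Os04g0107900, which entered the test only through its OLESA salt libraries, with 0.143 ± 0.127 CPM in IL22 and 2.06 ± 1.24 CPM in OLESA (SD, n = 3). Its 3 IL22 salt libraries, with 4, 0 and 3 counts, all lay below the 11 counts of the lowest OLESA salt library. IL22 differed from OLESA by −3.82 ± 0.78 (SE) on the log2 scale, 14.1-fold lower in IL22 (adjusted p = 0.0219, edgeR). The call was lost without OLESA salt replicate 3 (adjusted p = 0.0623) or without IL22 salt replicate 1 (0.101), 2 (0.0806) or 3 (0.0716), and a filter of 1 CPM in 3 libraries removed the gene. The number of genes called was 0 without any 1 of these 4 libraries and 2 without IL22 control replicate 1, while the share of all features ranged from 0.896% (without IL22 salt replicate 1) to 8.44% (without IL22 control replicate 1).

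Among the factors, HsfA2d had the largest estimate between the lines under salt, with 130 ± 17.6 CPM in IL22 and 76.7 ± 20.7 CPM in OLESA (SD, n = 3). The lowest IL22 salt library, at 110 CPM, was above the highest OLESA salt library, at 92.0 CPM. The log2 fold change of 0.76 ± 0.22 (SE), with a 95% interval from 0.27 to 1.24, did not pass after adjustment (adjusted p = 0.0899, edgeR). DESeq2 called it (0.0275), and so did the likelihood ratio test (0.035) and the fit without IL22 control replicate 1 (0.0479). These fits called 7.59%, 6.88% and 8.44% of all features, beside 2.85% in the full fit. The difference was not called in 17 of 21 alternatives, with adjusted p up to 0.252. HsfA2d was the 1 gene of 8 with IL22 salt libraries entirely above OLESA, beside 15.3% of features, and 2 of 8 lay entirely below, beside 16.3%.

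HSP70 was the other gene of the list whose IL22 salt libraries all lay below those of OLESA, at 204 to 247 CPM against 271 to 333 CPM. The log2 fold change of −0.42 ± 0.15 (SE) was smaller than the size used for calls and did not pass (adjusted p = 0.152, edgeR). The remaining factors were not called under salt, with log2 fold changes of −0.12 ± 0.74 (SE) for HsfA2a, 0.24 ± 0.21 for HsfA2c and −0.41 ± 0.33 for HsfB2c. HSP101 had 1.18 ± 0.80 CPM in IL22 and 2.51 ± 1.37 CPM in OLESA (SD, n = 3), with overlapping libraries (log2 fold change −1.06, adjusted p = 0.415, edgeR).

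**Figure D3:**
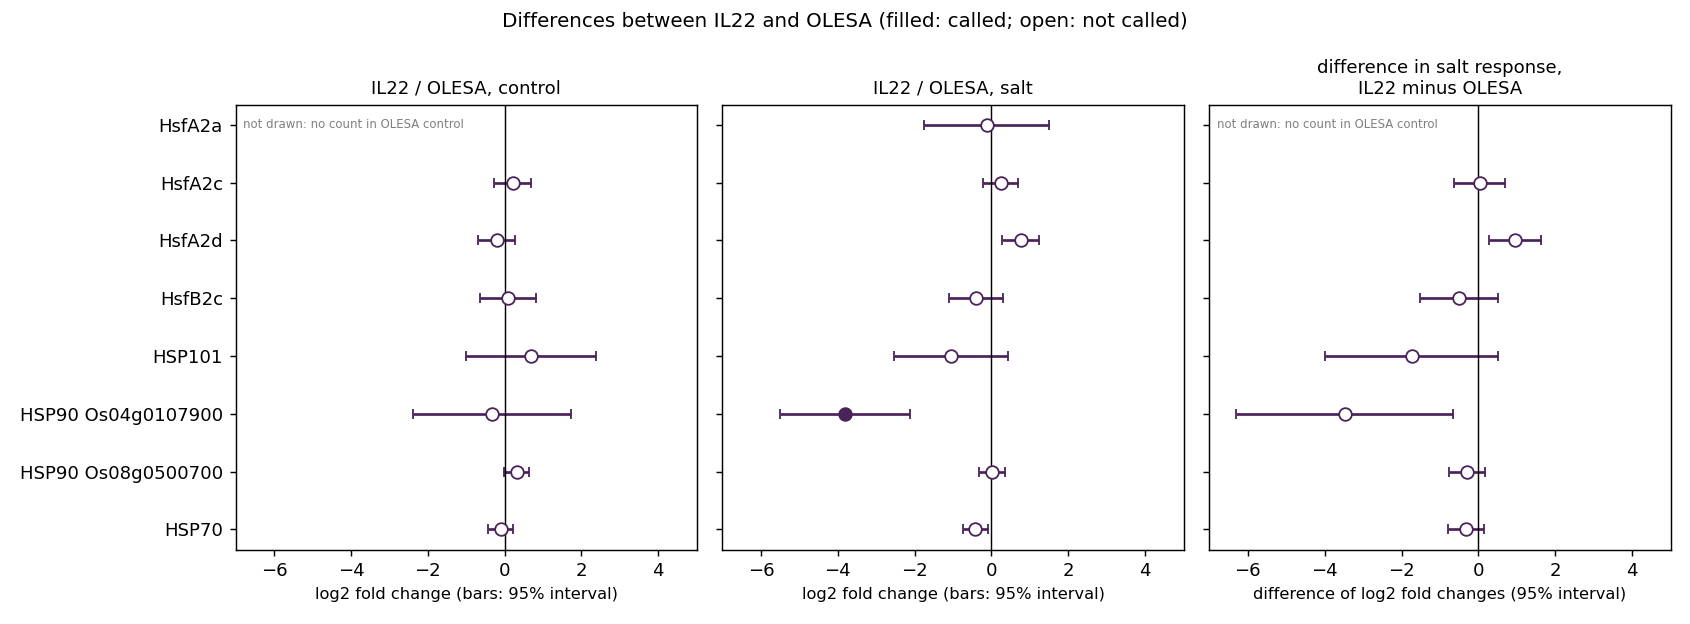
Log2 fold change of IL22 against OLESA in control (left) and in salt (middle), and the difference between the lines in their log2 response to salt (right), each with its 95% interval. HSP90 Os04g0107900 in salt, at −3.82, is the filled (called) symbol, and HsfA2d has positive estimates of 0.76 in salt and 0.96 in the response.

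The difference in response between the lines was tested as an interaction. None of the 8 genes passed, beside 4.99% of all features. That share depended on single libraries, as it was between 0.0891% and 0.267% without any 1 of 9 libraries and 23.3% without IL22 control replicate 1. At an unadjusted p of 0.05, 2 of 8 passed, beside 24.7% of features, a share close to that background. DESeq2 called 1 of 8, beside 12.1% of features. For HsfA2d the response was 0.96 ± 0.32 (SE) log2 units higher in IL22 than in OLESA, with a 95% interval from 0.28 to 1.64 (adjusted p = 0.0893, edgeR). DESeq2 called this difference (adjusted p = 0.038), and edgeR called it without IL22 control replicate 1 (0.0335). It was not called in 17 of the 20 alternatives, with adjusted p up to 0.201.

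For HSP90 Os04g0107900 the response was lower in IL22 by an estimate of −3.48 ± 1.30 (SE) log2 units, with a 95% interval from −6.30 to −0.67 (adjusted p = 0.124, edgeR). A rise in OLESA without a call in IL22 is therefore not shown to be a difference in response for this gene by the adjusted test. The same holds for HSP101, with an estimate of −1.74 ± 1.05 (SE) log2 units (adjusted p = 0.319, edgeR), and for HsfB2c, with −0.50 ± 0.47 (SE; adjusted p = 0.536, edgeR). HsfA2c had an estimate of 0.03 ± 0.31 (SE; adjusted p = 0.969, edgeR), and its 95% interval from −0.63 to 0.69 bounds the difference in its response. HSP90 Os08g0500700 and HSP70 had estimates of −0.30 ± 0.21 (SE) and −0.32 ± 0.22 (SE), neither of them called (adjusted p = 0.4 and 0.379, edgeR). HsfA2a was not called either (adjusted p = 0.283, edgeR), and no size is given for it because OLESA control had 0 counts.

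The calls differed in how much they depended on single libraries. HsfA2c and HsfB2c in OLESA and HsfA2c in IL22 stayed called under all 21 alternatives. Of these, 1 used an unadjusted p and could not lose a call. HsfA2a and HSP90 Os04g0107900 in OLESA did so in the 20 that tested them, but both entered the test only through salt libraries. HsfA2d and HSP101 in OLESA, HsfA2a in IL22 and HSP90 Os04g0107900 between the lines did not. OLESA salt replicate 3 was the highest of its group for 5 of 8 genes and replicate 1 the lowest for 6 of 8, while in IL22 salt replicate 2 was the highest for 5 of 8.

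**Figure D4:**
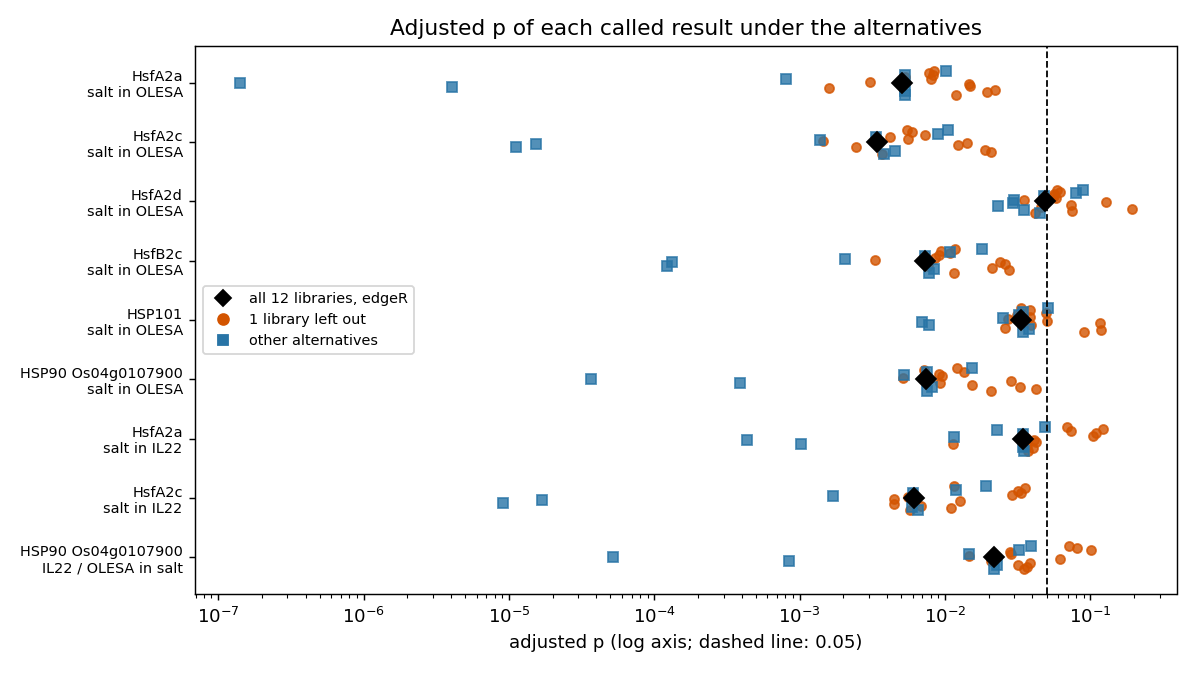
Adjusted p (horizontal log axis) of each of the 9 called results from the fit to all 12 libraries (black), with 1 library left out (orange) and under the other alternatives (blue), and a dashed line at 0.05. HsfA2d in OLESA straddles the line, and HsfA2c stays left of it in both lines, at 0.0356 or less.

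Lastly, the genes were compared with each other across the 12 libraries, as a description, since the libraries share 4 group means and the same salt treatment. Of the 28 pairs, 12 had a Pearson correlation of log2 CPM above 0.5 and 7 were below 0, and all 7 of the latter involved HsfA2d. HsfA2a and HsfA2c followed each other most closely (r = 0.95, Spearman's rho = 0.89). HsfA2c and HsfB2c correlated at 0.85. HsfA2d ran against HSP90 Os04g0107900 (r = −0.75) and against HSP70 (r = −0.71).

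After the mean of each group was subtracted, which leaves only the scatter among replicates, the median correlation fell from 0.37 to 0.16. HsfA2a and HsfA2c still correlated at 0.69. HsfA2c and HSP90 Os08g0500700 reached 0.95 in this scatter, above their 0.78 over all libraries. Outside the list, among the 11937 tested features whose mean log2 CPM was at least 3, the one most like HsfA2c was Os01g0851100 (r = 0.97, rho = 0.92 over 12 libraries), and 11 of the candidates were closer to HsfA2c than HsfA2a was. Os01g0851100 measured 31.3 ± 5.15 and 57.2 ± 9.59 CPM in OLESA control and salt, and 34.6 ± 2.59 and 61.6 ± 5.40 CPM in IL22 (SD, n = 3). The feature most like HSP101 was Os12g0137100 (r = 0.93, rho = 0.91), and 182 candidates were closer to HSP101 than HsfB2c, the closest gene of the list at 0.76.

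**Figure D5:**
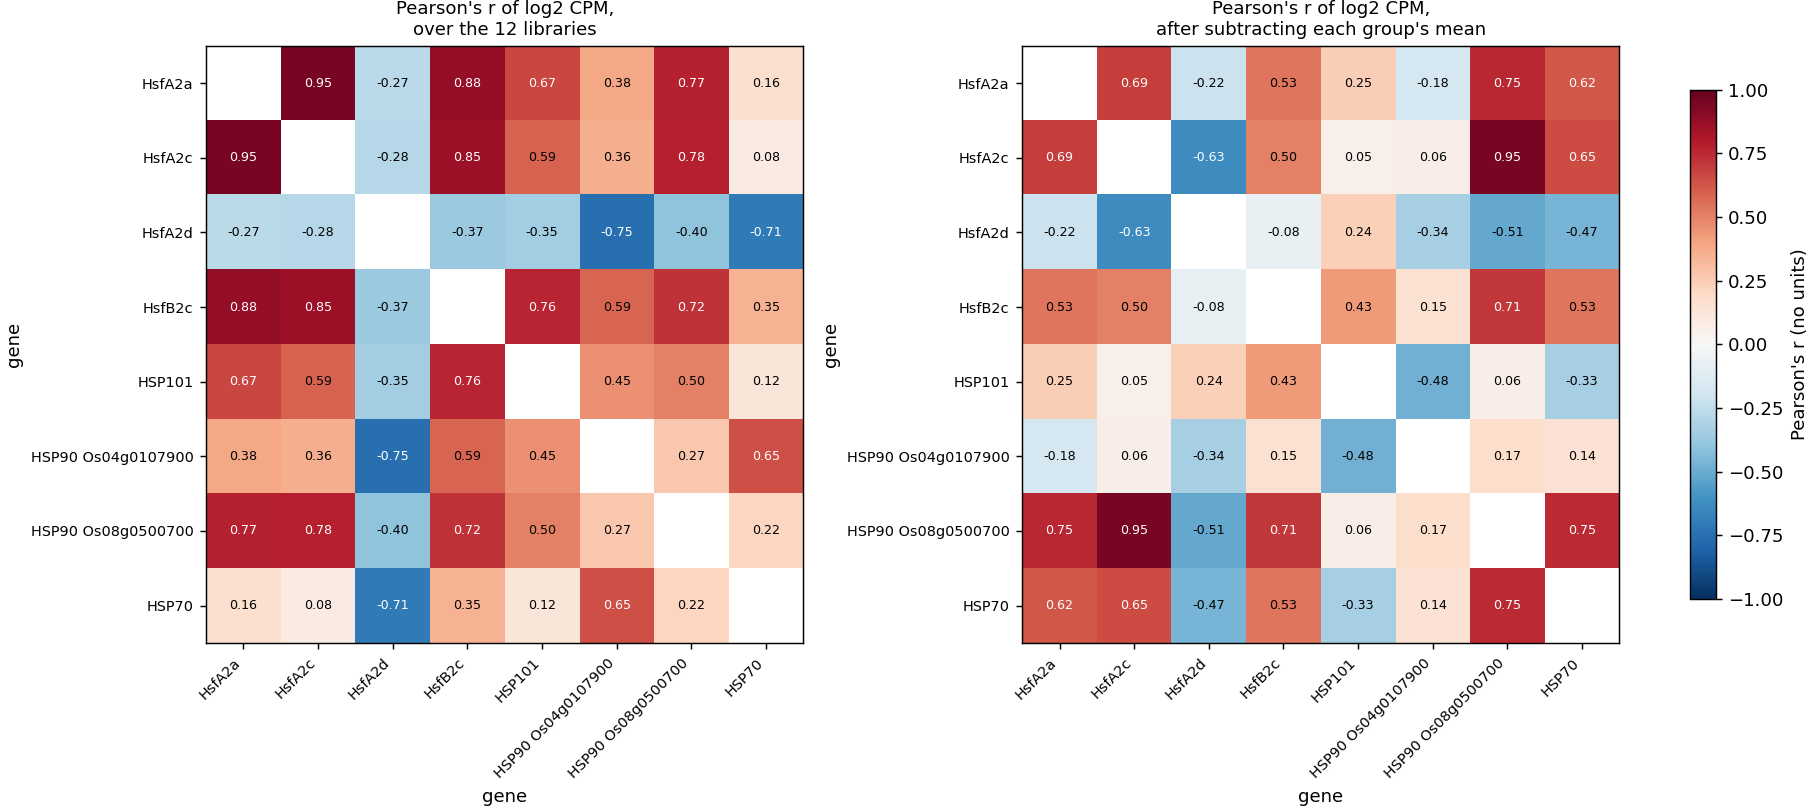
Pearson's r of log2 CPM for each pair of the 8 genes over the 12 libraries (left) and after the mean of each group was subtracted (right), on a color scale from −1 to 1. The HsfA2d row is negative throughout on the left, and the pair of HsfA2c and HSP90 Os08g0500700 has 0.95 on the right.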

How the data were processed

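The deposited values are raw counts of fragments for each feature, which the authors left without normalization, 1 column per library. Per the paper's methods and the submitters' processing notes, stranded TruSeq libraries were demultiplexed with bcl2fastq 2.20, adapters masked with cutadapt 1.11, reads trimmed with BBDuk, aligned to the *japonica* genome (IRGSP-1.0) with STAR 2.5.2b and counted with featureCounts 1.5.1. The treatment of fragments shared by several genes, and of strand, is not given in the sources used, and near-identical copies (HSP90 and HSP70 families) and overlapping genes are therefore uncertain.

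The analysis used edgeR 4.0.16 in R 4.3.3. filterByExpr (minimum count 10, minimum total 15) kept 20760 of 36844 features. TMM factors (0.845 to 1.12), dispersions and the quasi-likelihood fit used all 12 libraries with 1 mean per group. Standard errors were derived from the F statistic, and intervals are 95% intervals from the same fit. Log2 CPM for correlations used a prior count of 2. The alternatives tried were DESeq2 1.42.0, edgeR's likelihood ratio test, RLE factors, upper-quartile factors, no filter, a filter of 1 CPM in 3 libraries, the compared groups only, the replicate number as a block, an unadjusted p, and each of the 12 libraries left out. The steps were tested on simulated data.

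All 8 genes were named whatever their values, and the gene most like HSP101 and HsfA2c by Pearson correlation was named for each, 1 instead of the 2 of the original rule because their IDs are not annotated. The genes and lists were chosen with earlier results of these data known. A wider pathway list and leaf and root markers were not used here, and the tissue label was not checked, because the RefSeq gene table at hand (ASM3414082v1) matched 1 of 36844 IDs and 0 of these 8. Gene names are those given with the IDs. For the same reason no coordinate, sequence or gene length was used, the FPKM criterion of the study was not applied, and levels are not compared between genes per length.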

Additional observations from a re-analysis of the deposited data

How the results depend on the processing

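Of the 40 gene values (8 genes in 5 comparisons), recomputed values kept their direction and their side of the threshold in 767 cases, lost a call in 25, gained one in 13 and changed sign in 17. The number of genes called for salt in OLESA was 6 (21.6% of all features). It ranged from 4 to 6, beside shares from 9.05% (without OLESA control replicate 2) to 32.9% (unadjusted p). The compared groups only and the filter of 1 CPM in 3 libraries tested 7 of the 8 genes there. With 1 library left out, the number called ranged from 1 to 3 for salt in IL22 (2 in the full fit), beside 1.64% to 14.7% of all features. For IL22 against OLESA in salt it ranged from 0 to 2 (1 in the full fit), beside 0.896% to 8.44%. For the interaction it ranged from 0 to 1 (0 in the full fit), beside 0.0891% to 23.3%. It was 0 throughout for IL22 against OLESA in control, beside 0.741% to 18.9%. For IL22 against OLESA in salt, the full fit called 2.85% of all features. The number of these genes called was 2 with DESeq2 (7.59% of features), 2 with the likelihood ratio test (6.88%) and 2 at an unadjusted p (17.3%). It was 0 with the filter of 1 CPM in 3 libraries (3.05%), which left the called gene out. For the interaction it was 1 with DESeq2 (12.1%) and 2 at an unadjusted p (24.7%), beside 4.99% in the full fit. Signs changed only for estimates that were not called. With the replicate number as a block, HsfA2a in IL22 against OLESA in salt became 0.078 (adjusted p = 0.962). With 1 library left out, it ran from −0.65 to 0.37, HSP90 Os08g0500700 in the same comparison from −0.11 to 0.11, HSP90 Os04g0107900 for salt in IL22 from −0.29 to 0.72, HsfB2c in control from −0.21 to 0.28, HsfA2d in control from −0.31 to 0.016, and the HsfA2c interaction from −0.16 to 0.22. The cause of these shifts was not tested. The replicate number did not pair the libraries. The deviations of same-numbered libraries correlated above 0.1 in 4 of 18 pairs (range −0.33 to 0.20), and the own number was the best match in 9 of 36 choices. With the block, 4 genes were called for salt in OLESA in place of 6, while the share of all features fell from 21.6% to 16.6%. The lost calls were HsfA2d (adjusted p = 0.0893, edgeR) and HSP101 (0.0515). Depth limits HsfA2a, HSP101 and HSP90 Os04g0107900 most, none of which exceeded 76 counts in a library.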

Other observations

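The variation between replicates, as the biological coefficient of variation of the fit, was 62.4% for HsfA2a, 56.5% for HSP101 and 28.8% for HsfB2c, above the median of features at a similar level (41.5%, 40.7% and 19.6%). For HSP90 Os08g0500700 and HSP70 it was 15.2% each, below the corresponding medians of 17.2% and 17.4%. It was 19.9% for HsfA2c, 20.5% for HsfA2d and 48.3% for HSP90 Os04g0107900, beside medians of 18.8%, 17.2% and 46.7%.

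In the order of the locus IDs, the 50 tested features around each of the 8 genes were examined, 25 on each side. None of them was called between IL22 and OLESA in control, beside 1.38% of all features. Between 0 and 2 around each gene were called in salt, beside 2.85% of all features. The 2 calls in salt were around HSP90 Os04g0107900, and around HsfA2d there was none. Counts this small cannot be told from these shares, and they do not show whether a gene lies in an introgressed segment.

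In the RefSeq table, records with the symbols of HsfA2a and HsfA2d lie on Chromosome 3, HsfA2c on 10, HsfB2c on 9 and HSP101 on 5, as in the numbers of their locus IDs. The records of HsfA2c and HsfA2d also carry ARD symbols, and that of HsfA2c is classed as a transcribed pseudogene in that assembly. Among the IDs directly before or after the 8 genes, 6 were tested, beside 5 of the genes, and their log2 CPM correlated with that of the gene at −0.43 to 0.53 over the 12 libraries, 2 above 0 and 4 below. The highest value, 0.53, was beside HSP90 Os08g0500700, and HsfA2a had 0.47 with the ID before it (449 to 1091 counts per library). The ID before that of HsfA2d (2930 to 5765 counts) correlated at −0.43, and the ID after that of HsfA2c (9 to 75 counts) at −0.31. Whether reads of these neighbours entered the counts of the 8 genes was not tested.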
